A study of Mus musculus with 12 samples.

Results

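Foxa1, Foxa2, Foxa3, Hnf4a, Sox17, Cdx2 and Pdx1 are transcription factors of the endoderm, and their expression was described in dissected parts of heart organoids (HOs) and in chambers of embryonic hearts. The 7 genes were chosen by name, not by a threshold on measured values but with earlier results of these data known, from the 26190 genes of the deposited expression table, and each had 1 row. Foxa1, Foxa2 and Foxa3 are winged-helix factors that bind closed chromatin at endoderm enhancers and help to open it. Hnf4a is a nuclear receptor of visceral endoderm, liver and gut. Sox17 is an HMG-box factor of definitive and extraembryonic endoderm and also of endothelium. Cdx2 and Pdx1 are homeobox factors, Cdx2 of the trophectoderm, the posterior embryo and the intestine, and Pdx1 of the pancreas, duodenum and distal stomach.

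The RNA-seq data covered 12 libraries of mouse in 4 groups of 3. Hearts of C57BL/6 embryos at E11.5, called E11.5H here, gave the atria and the ventricles. Day 13 HOs were cut into a part resembling an atrium and a part resembling a ventricle. According to the methods, the HOs grew from wild-type embryonic stem cell lines derived from C57BL/6 and from F1 hybrids of C57BL/6 and JF1, while the labels give C57BL/6 for the HO libraries too, without naming the line. Embryoid bodies were cultured on a laminin-entactin gel with FGF4, with BMP4, the Wnt activator BIO and LIF added from day 9, and no step selected cardiac cells, so a dissected part can hold any cell type that arose in it. The labels and methods do not say whether libraries with the same number came from the same HO, nor how many HOs or embryos entered a library, so the p-values measure the spread between these libraries.

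Libraries held 23971258 to 30540993 fragments in genes. Replicates correlated at r = 0.967 to 0.976 (Pearson, log2 scale across genes) in the chambers of E11.5H. Atrium-like parts had r of 0.849 to 0.914, and ventricle-like parts had r of 0.778 to 0.888. The summed level of 16 cardiomyocyte genes, a check of the cardiac labels, was 25697 to 33431 FPKM (fragments scaled by transcript length and library total) in E11.5H. It was 413.5 to 1473 FPKM in the atrium-like libraries, and 2320 to 6057 FPKM in the ventricle-like libraries. All 16 of these genes reached 1 FPKM in every library except atrium-like replicate 1, in which 14 did. In bulk RNA, fewer cells of a type cannot be told apart from less RNA per cell.

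In the coordinates of GRCm38, Foxa1 lies at chr12:57540628-57546111, Foxa2 at chr2:148042877-148046969, Foxa3 at chr7:19013283-19023539 and Sox17 at chr1:4490928-4497354, all on the minus strand. Hnf4a lies at chr2:163506857-163572907 on the plus strand and overlaps Hnf4aos on the opposite strand. Pdx1 on the plus strand (chr5:147270097-147275848) and Cdx2 on the minus strand (chr5:147300900-147307249) are neighbours, with 25051 bases between their ends, and Pdx1 overlaps Plut on the opposite strand. Whether the counting used strand is not given in the sources used here, so the values of Hnf4a and Pdx1 could hold reads of these antisense genes.

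Promoter windows of 300 bases, from 250 before to 50 after a transcription start, were taken from RefSeq (GRCm38.p6) for 6 of the 7 genes, with 9 windows in all, since Foxa2 has 3 starts and Hnf4a has 2. There was no entry for Sox17. The windows of Cdx2 and of the upstream start of Hnf4a are shown because these factors ranked the HO libraries in the same order, and that of Foxa1 because it shares a motif with Cdx2. Capitals mark matches on either strand. The first motif searched, for forkhead factors, was TGTTTAC. A motif of Gata4 and its relatives was AGATAA. Each window reads along the strand of its gene.
Cdx2, minus strand of chr5:147307200-147307499: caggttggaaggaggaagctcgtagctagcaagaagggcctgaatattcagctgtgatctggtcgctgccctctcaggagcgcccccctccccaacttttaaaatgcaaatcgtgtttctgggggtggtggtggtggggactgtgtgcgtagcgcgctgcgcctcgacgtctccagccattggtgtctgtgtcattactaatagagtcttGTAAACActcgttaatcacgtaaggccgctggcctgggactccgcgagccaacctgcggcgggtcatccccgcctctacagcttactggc
Foxa1, minus strand of chr12:57546062-57546361: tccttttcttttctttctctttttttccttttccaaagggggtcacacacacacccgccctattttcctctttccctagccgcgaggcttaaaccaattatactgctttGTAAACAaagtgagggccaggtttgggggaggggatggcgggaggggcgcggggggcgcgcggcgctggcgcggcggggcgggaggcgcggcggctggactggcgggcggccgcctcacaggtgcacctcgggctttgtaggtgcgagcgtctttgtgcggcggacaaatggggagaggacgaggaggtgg
Hnf4a, upstream start, plus strand of chr2:163506607-163506906: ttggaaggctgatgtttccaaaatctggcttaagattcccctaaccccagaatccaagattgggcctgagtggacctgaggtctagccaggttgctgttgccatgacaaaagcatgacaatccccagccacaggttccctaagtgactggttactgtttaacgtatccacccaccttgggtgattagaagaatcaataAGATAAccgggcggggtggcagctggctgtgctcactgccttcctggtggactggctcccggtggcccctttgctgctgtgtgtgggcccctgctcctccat

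The Cdx2 window held the forkhead motif 40 bases before the start. The Foxa1 window held the forkhead motif 141 bases before the start. The upstream start of Hnf4a had an AGATAA match 52 bases before it. One of the Foxa2 windows, at chr2:148045415-148045714, held AGATAA 183 bases before its start. Of the 32851 mouse promoter windows of this length, 3.65% held TGTTTAC and 11.2% held AGATAA. The second forkhead form TATTTAC (3.04% of all windows), the HNF4 motif CAAAGTC (4.44%), the CDX motif TTTATTG (4.60%) and the SOX motif ACAATGG (3.66%) had no match in the 9 windows, and the windows of Foxa3, Pdx1 and the downstream start of Hnf4a had no match to any of these motifs.

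The 3 Foxa genes are paralogs, so reads could be shared between them. Their levels in each library are given separately, and the ratio of Foxa1 to Foxa2 was not the same throughout.

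In the chambers of E11.5H, Foxa1, Foxa2, Foxa3, Hnf4a, Cdx2 and Pdx1 were at or near 0, and Sox17 was present at a low level. Summed over the 6 libraries of E11.5H, Foxa1 had 20 fragments, Foxa2 and Hnf4a had 3 each, Cdx2 had 2, and Foxa3 and Pdx1 had none. Sox17, which endothelial and endocardial cells also express, had 0.724, 1.24 and 1.17 FPKM in atria and 1.16, 1.07 and 0.971 FPKM in ventricles. These values overlapped, and the log2 difference of Sox17 between atria and ventricles was -0.10 (standard error 0.29, edgeR adjusted p = 0.866), against 4.89% of the 14538 genes tested that were called. It turned to 0.09 without atria replicate 1 and to 0.46, where the median gene was at 0.56, when libraries were scaled to the 16 cardiomyocyte genes. The other 6 factors had too few fragments in E11.5H for a test between chambers.

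**Figure D1:**
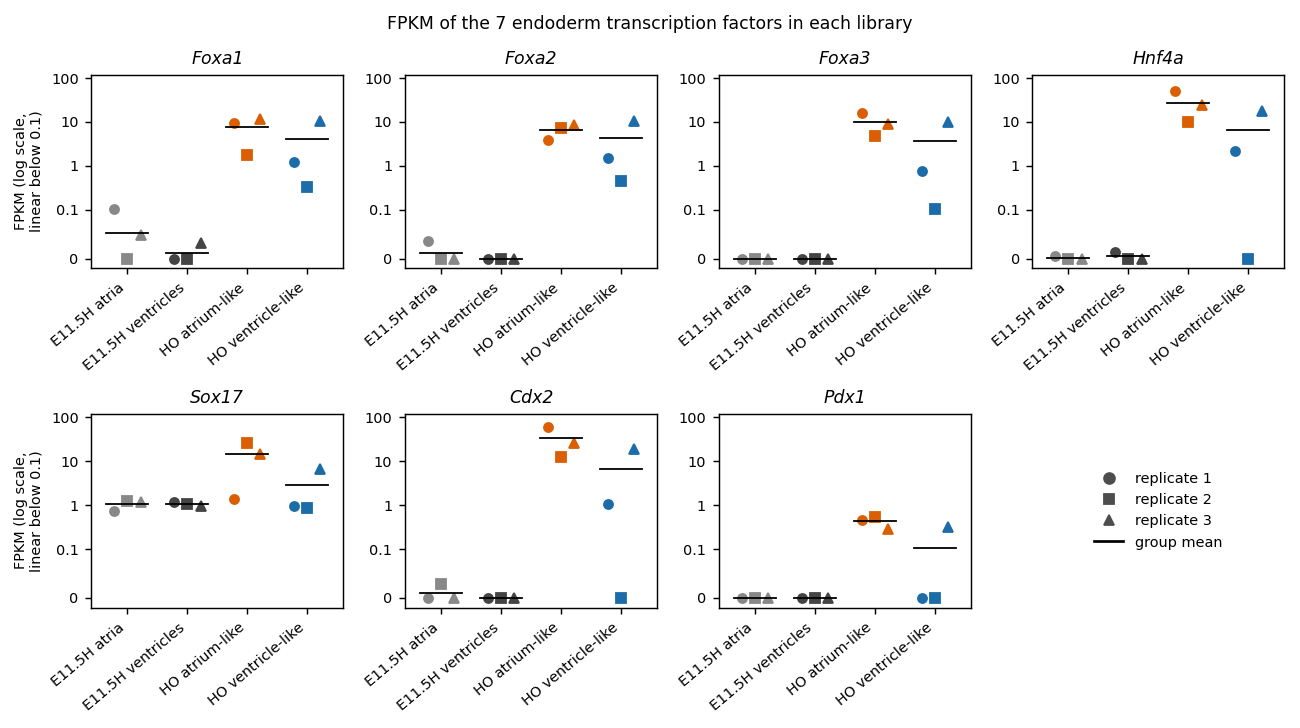
FPKM (log scale, linear below 0.1) of the 7 factors in each of the 12 libraries; symbols mark replicates and lines the group mean of 3. Grey points of E11.5H lie at or near 0 except for Sox17, at 0.724 to 1.24 FPKM, while HO libraries reach 61.3 FPKM for Cdx2 and spread widely within each group.

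Among the Foxa factors, Foxa1 had 9.29, 1.76 and 11.7 FPKM in atrium-like replicates 1 to 3 and 1.20, 0.327 and 10.6 FPKM in ventricle-like replicates 1 to 3. Its highest level in E11.5H was 0.107 FPKM, so every HO library was above every E11.5H library. Foxa2, the factor of the node, floor plate and definitive endoderm, had 3.94, 7.36 and 8.62 FPKM in atrium-like and 1.48, 0.452 and 10.7 FPKM in ventricle-like parts. It was highest in ventricle-like replicate 3, and every HO library was above the 0.0358 FPKM that was its highest level in E11.5H. Foxa3, the Foxa gene most tied to liver and gut, had 16.3, 4.79 and 9.12 FPKM in atrium-like and 0.779, 0.105 and 10.1 FPKM in ventricle-like parts. It was listed at 0 in each E11.5H library and above 0 in each HO library, though ventricle-like replicate 2 had only 7 fragments.

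Hnf4a had 49.5, 9.86 and 23.7 FPKM in the atrium-like parts. In the ventricle-like parts it had 2.15, 0 and 17.8 FPKM. Ventricle-like replicate 2 had no fragment of Hnf4a, and the other 5 HO libraries were above every E11.5H library. Cdx2 had 61.3, 12.3 and 26.1 FPKM in atrium-like and 1.04, 0 and 18.6 FPKM in ventricle-like parts. The order of the 6 HO libraries was the same for Cdx2 as for Hnf4a, with atrium-like replicate 1 highest and ventricle-like replicate 2 at 0.

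Sox17 had 1.37, 26.7 and 14.7 FPKM in atrium-like and 0.977, 0.874 and 6.78 FPKM in ventricle-like parts. It was highest in atrium-like replicate 2, and ventricle-like replicates 1 and 2 lay within the range of E11.5H. Pdx1 was the lowest factor, at 0.467, 0.526 and 0.289 FPKM (27, 36 and 19 fragments) in atrium-like parts. Of the ventricle-like parts only replicate 3 had Pdx1, at 0.321 FPKM (21 fragments), and the other two were listed at 0.

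Taken by library, 7 of the 7 factors were above every E11.5H library in atrium-like replicates 1, 2 and 3 and in ventricle-like replicate 3. In ventricle-like replicate 1 it was 5, without Sox17 and Pdx1, and in ventricle-like replicate 2 it was 3, namely Foxa1, Foxa2 and Foxa3. Apart from Sox17, the factors had few or no fragments in E11.5H, so a small number of HO fragments was enough to put them above. The share of all genes above every E11.5H library is not given for single libraries, so these counts are descriptions and support nothing further. None of the 7 reached 1 FPKM in ventricle-like replicate 2, and 4 did in ventricle-like replicate 1, against 6 in each of the other HO libraries. Their summed level was 142 FPKM in atrium-like replicate 1, 63.3 in replicate 2 and 94.1 in replicate 3. In the ventricle-like parts it was 7.63, 1.76 and 74.9 FPKM for replicates 1 to 3, against 0.873 to 1.27 FPKM in E11.5H. So the third ventricle-like library lay within the range of the atrium-like libraries and the other two were below it.

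The comparison of atrium-like parts with atria of E11.5H asked how the organoid differed from the chamber it is named for. In this fit 15420 genes passed the filter for low counts, of which 16% were called higher in atrium-like parts (edgeR quasi-likelihood test, Benjamini-Hochberg adjusted p under 0.05 and a log2 difference over 1). The 7 factors passed the filter and were called higher, but 6 of them passed it only through the HO libraries, since their counts in atria were near 0, so they had to differ and the count of 7 supports nothing further. Sox17 was the factor with counts in both groups. It had 14.2 ± 12.7 FPKM (SD, n = 3) in atrium-like parts and 1.05 ± 0.280 FPKM (SD, n = 3) in atria, a log2 difference of 3.85 (standard error 0.93, edgeR adjusted p = 0.0244). In FPKM, 3 of 3 atrium-like libraries were above 3 of 3 atria, as for 24.1% of the genes tested, though atrium-like replicate 1, at 1.37 FPKM, was just above the highest atrial value of 1.24 FPKM. The call for Sox17 was lost without any 1 of the 3 atrial libraries (adjusted p = 0.1001, 0.0885 and 0.0887 without atria replicates 1, 2 and 3) and without atrium-like replicate 3 (0.0638), at log2 differences of 3.65 to 3.96. The call for Foxa1 was lost without atria replicate 3 (edgeR adjusted p = 0.0532) and that for Pdx1 without atria replicate 2 (0.0517) or 3 (0.0502), which left 6, 5 and 4 factors called without atria replicates 1, 2 and 3.

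For the other factors the summed fragments, scaled by depth, give the size of the difference. Foxa1 was 144-fold higher in atrium-like parts (95% counting interval 89.7 to 248, 2244 against 17 fragments), with 7.57 ± 5.17 FPKM (SD, n = 3) against 0.0517 ± 0.0534. Foxa2 was 554-fold higher (189 to 2688, 1523 against 3 fragments). Cdx2 was 3532-fold higher (977 to 29168, 6475 against 2 fragments), with a mean of 33.2 ± 25.3 FPKM (SD, n = 3) in the atrium-like parts, the highest of the 7. Hnf4a, at 27.7 ± 20.1 FPKM (SD, n = 3), was 12807-fold higher (2298 to 505879, 11740 against 1 fragment). Foxa3 was at least 686-fold higher and Pdx1 at least 29.8-fold higher, each against 3 counts over the 3 atria, in which they had none. Without atrium-like replicate 1 the folds were 8014 for Hnf4a and 2113 for Cdx2. These intervals and limits cover counting error only and not the spread between libraries.

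**Figure D2:**
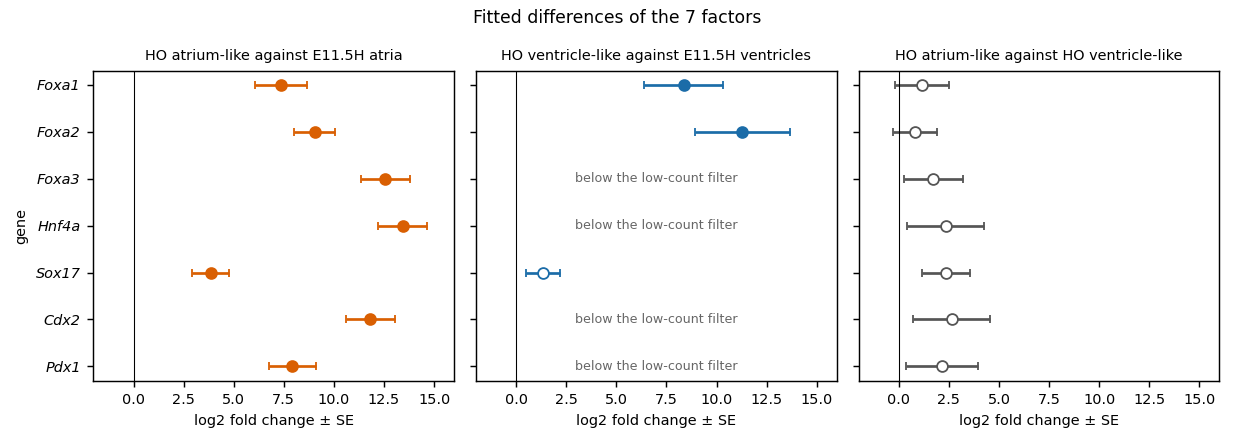
Log2 fold changes (first group minus second, with standard errors) of the 7 factors from the edgeR fits of 3 comparisons; filled points were called and open points were not. Apart from Sox17, the factors tested against E11.5H passed the filter only through the HO libraries and had to differ. Hnf4a, Cdx2, Foxa3 and Pdx1 were not tested for ventricle-like parts, and no factor was called between the HO parts. Where a group has almost no fragments the fitted value depends on the prior count and is no bound.

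In the comparison of ventricle-like parts with ventricles of E11.5H, 15094 genes passed the filter and 11.6% were called higher in ventricle-like parts. Of the 7 factors, Foxa1, Foxa2 and Sox17 passed the filter, and Foxa1 and Foxa2 were called higher (edgeR adjusted p = 0.0253 and 0.0331). Foxa1 was 410-fold higher by summed fragments (95% counting interval 140 to 1993, 1250 against 3 fragments), and Foxa2 was at least 319-fold higher against 3 counts over the group. In FPKM, the ventricle-like libraries did not overlap with the ventricles for Foxa1 and Foxa2, as for 29.6% of the genes tested. Foxa3 did not overlap either but was not among the genes tested, and the remaining factors overlapped. Foxa2 and Foxa3 had no fragment in the ventricles, so any HO fragment kept the groups apart. Most of the summed fragments of Foxa1 and Foxa2 came from ventricle-like replicate 3, with 1091 of 1250 for Foxa1 and 823 of 973 for Foxa2. Without it Foxa1 was 77.8-fold and Foxa2 at least 73.4-fold higher. Both passed the filter through the HO libraries alone, so they had to differ and the calls support nothing further. Both calls were lost without any 1 of the 3 ventricles (adjusted p of 0.0950 to 0.105 for Foxa1 and 0.0855 to 0.0904 for Foxa2), and that for Foxa2 also without ventricle-like replicate 1 (0.0698).

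Sox17 had 2.88 ± 3.38 FPKM (SD, n = 3) in ventricle-like parts and 1.07 ± 0.0933 FPKM (SD, n = 3) in ventricles. Its log2 difference was 1.34 (standard error 0.84, edgeR adjusted p = 0.272), the groups overlapped, and without ventricle-like replicate 3 the difference was -0.33 (adjusted p = 0.509). Scaled to the cardiomyocyte genes Sox17 was called higher, at 4.12 beside a median of 3.48 over all genes tested. So were 14156 of the 15094 genes tested. Hnf4a, Cdx2, Foxa3 and Pdx1 were not tested, because they had fewer than 10 fragments in ventricle-like replicate 2 and in each ventricle. By summed fragments Hnf4a was 1487-fold higher in ventricle-like parts (95% counting interval 411 to 12287, 3020 against 2 fragments), and Cdx2 was at least 448-fold, Foxa3 at least 239-fold and Pdx1 at least 6.90-fold higher against 3 counts over the group. Of these fragments, ventricle-like replicate 3 held 2692 of 3020 for Hnf4a, 1291 of 1364 for Cdx2, 669 of 728 for Foxa3 and 21 of 21 for Pdx1. Without it Hnf4a was 240.7-fold, Cdx2 at least 35.7-fold and Foxa3 at least 28.9-fold higher, and Pdx1 had no fragment in either group. Without ventricle-like replicate 2, 5 factors were called, namely Foxa1, Foxa2, Foxa3, Hnf4a and Cdx2 (edgeR adjusted p of 0.00638 to 0.0377), but these factors passed the filter there only through the remaining HO libraries, so they had to differ. Without ventricle-like replicate 1 only Foxa1 was called.

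Between the 2 parts of the HOs, 15704 genes passed the filter and 0% were called, with 890 at an unadjusted p under 0.05, while the Wald test of DESeq2 called 72. The 7 factors were tested and none was called. Their means were higher in atrium-like than in ventricle-like parts, with log2 differences from 0.80 (standard error 1.08) for Foxa2 to 2.63 (standard error 1.92) for Cdx2 and edgeR adjusted p of 0.750 to 0.852. Without ventricle-like replicate 3 the log2 differences ran from 2.91 (Foxa2) to 7.89 (Pdx1), with 6.25 for Cdx2 and 4.93 for Hnf4a, and without ventricle-like replicate 2 that of Foxa2 was 0.27. No factor was called without any 1 of the 6 libraries. Hnf4a had 27.7 ± 20.1 and 6.66 ± 9.73 FPKM (SD, n = 3 each), and Cdx2 had 33.2 ± 25.3 and 6.53 ± 10.4 FPKM. The groups overlapped in FPKM for each of the 7 factors, with ventricle-like replicate 3 among or above the atrium-like libraries. The standard errors are wide enough that a difference of several-fold in either direction was not detectable for most factors. Scaled to the 16 cardiomyocyte genes, whose summed level differed between the parts, 6 of the 7 factors were called higher in atrium-like parts, at log2 differences of 3.04 (Foxa2) to 5.67 (Cdx2) beside a median of 1.64 over all genes tested. Of the 15704 genes tested, 1631 were called higher in atrium-like parts under this scaling.

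The balance between the factors differed from 1 HO library to the next. The ratio of Cdx2 to Hnf4a in FPKM was 1.24 (95% counting interval 1.19 to 1.29), 1.25 (1.15 to 1.36) and 1.10 (1.04 to 1.17) in atrium-like replicates 1 to 3 and 1.04 (0.974 to 1.11) in ventricle-like replicate 3. Only ventricle-like replicate 1 stood off, at 0.483 (0.370 to 0.625), and ventricle-like replicate 2 had neither gene. Foxa3 kept a ratio to Hnf4a of 0.329 to 0.568 in the 5 libraries with Hnf4a. The ratios of these 3 factors to each other thus stayed within a few-fold, while Hnf4a itself ranged from 2.15 to 49.5 FPKM in those libraries.

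Foxa1 and Foxa2 did not keep 1 ratio. Foxa1 was 2.36 times Foxa2 (95% counting interval 2.06 to 2.72) in atrium-like replicate 1 but 0.240 times (0.202 to 0.283) in atrium-like replicate 2. In atrium-like replicate 3 the ratio was 1.35 (1.23 to 1.49), and in ventricle-like replicates 1 to 3 it was 0.810, 0.724 and 0.988. Sox17 varied most against the others. Its ratio to Hnf4a was 0.0276 (0.0235 to 0.0323) in atrium-like replicate 1 and 2.70 (2.55 to 2.87) in atrium-like replicate 2. In the remaining 3 libraries with Hnf4a it was 0.621, 0.454 and 0.380. These intervals cover counting error within a library and the ratios were not compared between groups by a test.

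**Figure D3:**
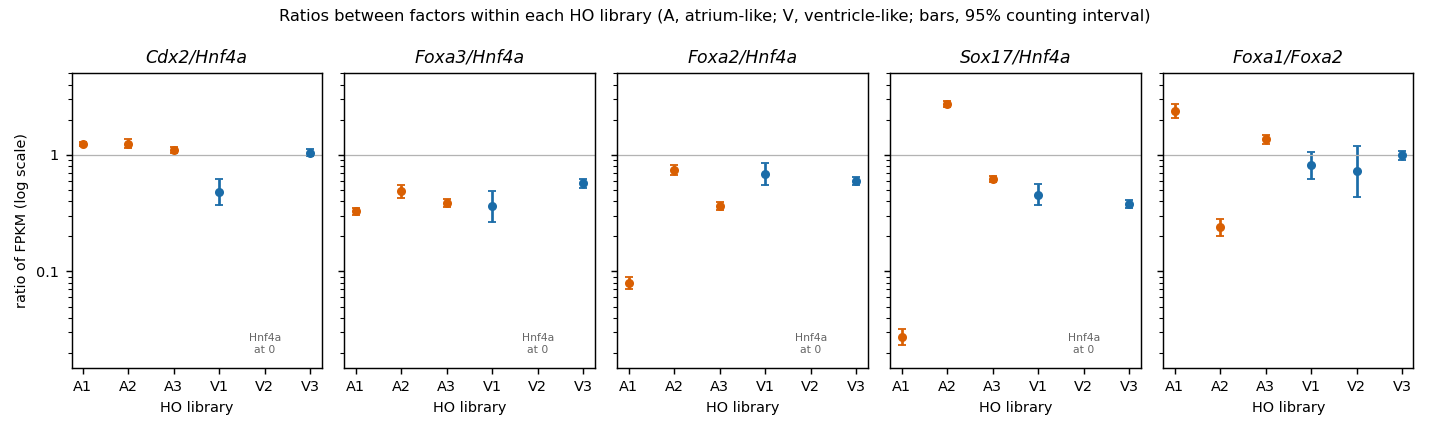
Ratios of FPKM between pairs of factors in the 6 HO libraries (A1 to A3, atrium-like; V1 to V3, ventricle-like) on a log scale, with 95% counting intervals. The Cdx2/Hnf4a and Foxa3/Hnf4a points lie in a narrow band apart from Cdx2/Hnf4a in V1 (0.483), while Sox17/Hnf4a runs from 0.0276 in A1 to 2.70 in A2; V2 had no Hnf4a.

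By order of level, Cdx2 led, followed by Hnf4a, in atrium-like replicates 1 and 3 and ventricle-like replicate 3. Sox17 led in atrium-like replicate 2, ahead of Cdx2 and Hnf4a, and Hnf4a led in ventricle-like replicate 1. In ventricle-like replicate 2 the order was Sox17, Foxa2, Foxa1 and Foxa3, all below 1 FPKM. Over the 6 HO libraries, Pearson's r of log2 normalized counts was 0.983 between Cdx2 and Hnf4a, 0.995 between Cdx2 and Foxa3 and 0.975 between Foxa3 and Hnf4a. With Sox17 these 3 factors had r of 0.543 to 0.574, and Sox17 was closest to Foxa2, at 0.812. The 6 points share their libraries, and ventricle-like replicate 2 lay far below the others for most factors, so these values are descriptions.

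Among 12891 genes with a mean of at least 1 FPKM in the HO libraries, the 3 genes most like Hnf4a were Ugt2b34 (r = 0.998, 0.211 to 119 FPKM), Apoa1 (0.997, 1.24 to 7215 FPKM) and Otud7b (0.997, 4.85 to 7.88 FPKM), all over 6 libraries. Those most like Cdx2 were Fgd4 (0.999), Ugt2b35 (0.997) and Gstm3 (0.996), and those most like Foxa3 were Acnat1 (0.996), Lgals2 (0.995) and Clic6 (0.995). Foxa1 was nearest to Tet3 (0.999), Rbp4 (0.999) and Yipf2 (0.997), and Foxa2 to Vsig2 (0.989), Cdc123 (0.979) and Phf12 (0.979). For Sox17 they were Tgfbr3 (0.983), Spc25 (0.967) and Pga5 (0.965), which is a pepsinogen gene. An r over 0.95 was reached by 260 genes for Hnf4a, 351 for Cdx2, 354 for Foxa3 and 372 for Foxa1, but by 25 for Foxa2 and 9 for Sox17. Several of the named genes, such as Tet3 (5.65 to 6.89 FPKM), hardly varied in level.

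Genes that mark the kinds of endoderm in which these factors act were then read in the same libraries. List genes with fewer than 10 fragments in an E11.5H library of the comparison passed the filter mainly through the HO libraries, so they had to differ, and their number is given beside each count. The counts stand against 16% (atrium-like) and 11.6% (ventricle-like) of all genes tested that were called higher, and the medians of log2 differences include such genes. Called lower were 1361 of 15420 genes tested for atrium-like parts and 1113 of 15094 for ventricle-like parts. For visceral endoderm, the lead gene (the first of its list) Rhox5 had 47.2, 54.5 and 81.6 FPKM in atrium-like and 16.7, 34.5 and 19.4 FPKM in ventricle-like parts, against 5.90 to 7.83 FPKM in E11.5H. It was called higher in both parts (log2 difference 3.34, edgeR adjusted p = 0.00162, and 1.56, adjusted p = 0.0172). In ventricle-like parts Rhox5 did not follow the sum of its list, which was 155, 102 and 621 FPKM for replicates 1 to 3. Of the 12 genes of this list, 11 were tested and 7 called higher in atrium-like parts (median log2 difference 3.34, against 0.06 over all genes tested), 2 of the 7 with so few fragments in atria. The tested genes not called there were Lrp2, at a log2 difference of 2.07, and Cited1, Sox7 and Gata6, which went the other way (-0.86, -1.96 and -0.50). In ventricle-like parts 10 were tested, of which 2 (Rhox5 and Dab2) were called higher and Cited1 lower, at a median of 1.29 against 0.09. Dab2, an endocytic adaptor, had 45.7 to 95.7 FPKM in atrium-like parts, 20.5 to 45.4 FPKM in ventricle-like parts and 12.1 to 18.5 FPKM in E11.5H. Apoa4 and Spink1, which the gut and the yolk sac share, were the highest of the list in the HO libraries, with 0.0184 to 3250 and 0.435 to 578 FPKM.

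Secreted proteins that yolk sac endoderm and fetal liver share had the highest summed level of the 14 lists in atrium-like replicates 1 and 3 and ventricle-like replicate 3, but not in the other 3 HO libraries. Afp, alpha-fetoprotein, had 3741, 78.6 and 1453 FPKM in atrium-like parts and 85.0, 1.88 and 2376 FPKM in ventricle-like parts, against at most 0.777 FPKM in E11.5H. Apoa1, a lipoprotein component, had 7215, 432 and 1986 FPKM in atrium-like and 115, 1.24 and 1303 FPKM in ventricle-like parts. Trf, transferrin, had 1720, 91.7 and 931 FPKM in atrium-like and 133, 76.7 and 1163 FPKM in ventricle-like parts. Of the 12 genes, 11 were tested and 11 called higher in atrium-like parts (median 11.47), and 9 were tested and 7 called higher in ventricle-like parts (median 8.15). Of those called, 6 of 11 and 5 of 7 had fewer than 10 fragments in a chamber library, and the others were Ttr, Apoa1, Apoa2, Apob and Trf for atrium-like and Trf and Rbp4 for ventricle-like parts. Atrium-like replicate 2, the library with the most Sox17, had less of this group (691.6 FPKM in sum) than atrium-like replicate 3 (5918 FPKM) or ventricle-like replicate 3 (6135 FPKM).

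The hepatocyte list was lower in level. Alb, albumin, had 18.9, 0.358 and 64.6 FPKM in atrium-like and 0, 0.876 and 40.3 FPKM in ventricle-like parts. Ambp reached 53.0 FPKM and Cps1, a urea cycle enzyme that the gut also expresses, 55.9 FPKM, both in atrium-like replicate 1. Of the 12 genes, 9 were tested in atrium-like parts, with 6 higher and 2 lower (Hhex and Prox1, which the embryonic heart also expresses), and 6 in ventricle-like parts, with 2 higher and 1 lower. Of those higher, 5 of 6 and 2 of 2 had fewer than 10 fragments in a chamber library. The libraries with all or nearly all of this list at 1 FPKM or more were ventricle-like replicate 3 (12 of 12) and atrium-like replicate 3 (11 of 12), against 3 to 7 in the other 4 HO libraries.

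Genes of intestinal epithelium, like Cdx2 and Hnf4a, had their highest sum in atrium-like replicate 1 and their lowest HO sum in ventricle-like replicate 2. The visceral endoderm list (4130 and 102 FPKM), the list shared by yolk sac and liver (14091 and 109 FPKM) and the epithelial list (4107 and 647 FPKM) had the same extremes. These extremes therefore do not set the intestinal genes apart. Fabp2, the intestinal fatty acid binding protein, had 4161, 718 and 1212 FPKM in atrium-like and 56.0, 1.998 and 343 FPKM in ventricle-like parts, against at most 0.644 FPKM in E11.5H. Lgals4 had 35.9 to 1116 FPKM and Tff3 8.003 to 373 FPKM in the 5 HO libraries with Hnf4a, and 1.25 and 0.668 FPKM in ventricle-like replicate 2. Cdx1, the paralog of Cdx2, had 10.6, 2.87 and 2.93 FPKM in atrium-like and 0, 0.297 and 2.63 FPKM in ventricle-like parts. Of the 12 genes, 10 were tested and 9 called higher in atrium-like parts (median 11.53), and 8 were tested and 5 called higher in ventricle-like parts (median 8.48). All of these except Krt20 in atrium-like parts had fewer than 10 fragments in a chamber library, so the counts add nothing to the levels. Muc2 and the stem cell genes Lgr5 and Olfm4, chosen here after their values were seen, reached at most 0.187, 0.726 and 0.168 FPKM in the HO libraries.

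The pancreatic list stayed near 0 although Pdx1 was present. Its lead gene Ptf1a, needed for the pancreas, was listed at 0 in all 12 libraries. The 3 highest genes of the list in HOs, Neurod1, Gcg and Iapp, had 1.20, 0.870 and 0.749 FPKM in ventricle-like replicate 2, which had no Pdx1. They had at most 0.141 FPKM in the other 5 HO libraries. Only Cpa1 of the 12 genes was tested, and it was called lower in both parts. In the 4 libraries with Pdx1 the 12 genes summed to 0.423 to 0.739 FPKM, against 1.82 to 5.26 FPKM in E11.5H, where Cpa1 made up most of it.

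Genes of stomach, lung and thyroid epithelium separated the libraries in another way. Gkn2 and Gkn1, gastrokines of the stomach, had 571 and 172 FPKM in atrium-like replicate 2, the library in which Sox17 was highest and Foxa1 lowest against Foxa2. In the other 5 HO libraries they had 0.432 to 26.4 and 0.476 to 11.48 FPKM. Tff1, also of the stomach, had 3.36, 8.15 and 14.3 FPKM in atrium-like and 0.0639, 0.192 and 5.45 FPKM in ventricle-like parts. Sox2, the lead gene of the list, was highest in ventricle-like replicate 3, at 3.73 FPKM, where Foxa2 was highest too. That library also had the highest levels of Nkx2-1 (10.9 FPKM) and Foxe1 (11.4 FPKM), factors of lung and thyroid that were chosen after their values were seen, followed by atrium-like replicate 3 with 3.20 and 2.56 FPKM. Of the 10 genes, 6 were tested with 5 higher in atrium-like parts (median 8.20), and 4 were tested with 2 higher in ventricle-like parts (median 8.53). Each of these had fewer than 10 fragments in a chamber library and had to differ.

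**Figure D4:**
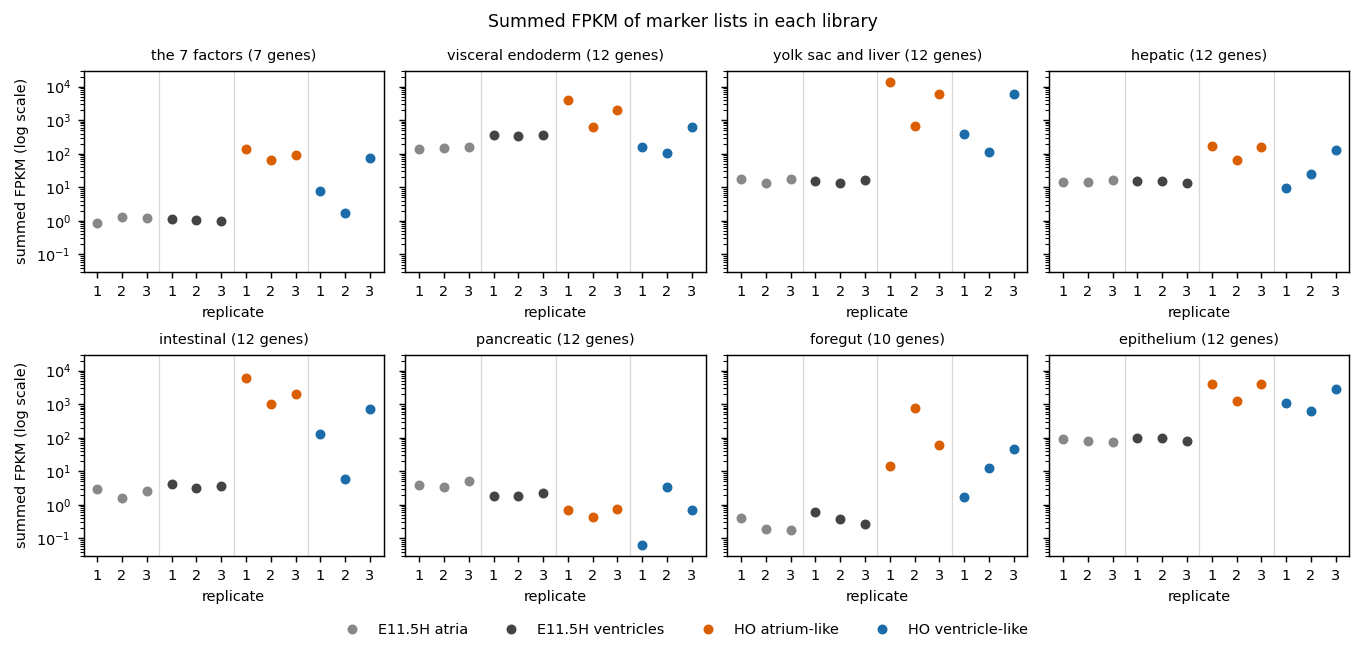
Summed FPKM (log scale) of the 7 factors and of 7 marker lists in each of the 12 libraries. Intestinal genes sum to 6051 FPKM in atrium-like replicate 1 and 6.11 in ventricle-like replicate 2, the pancreatic list reaches at most 5.26 FPKM, and the foregut list is highest in atrium-like replicate 2, at 752 FPKM.

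Other transcription factors of the endoderm were read from a list of 16. Elf3, an epithelial ETS factor, had 7.85 to 174.5 FPKM in the HO libraries against at most 0.801 in E11.5H. Gata4 and Gata6, which heart and endoderm both use, had 35.6 to 119.5 and 24.9 to 41.35 FPKM in the HO libraries. In E11.5H they had 89.4 to 106 and 43.65 to 62.25 FPKM, and neither was called in any comparison of HO parts with E11.5H. Of the 16 genes, 14 were tested in atrium-like parts with 8 higher and 3 lower (median 5.09), and 11 in ventricle-like parts with 4 higher and 1 lower (median -0.43). Of those higher, 6 of 8 and 4 of 4 had fewer than 10 fragments in a chamber library.

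Epithelial genes were present in each HO library. Epcam, an epithelial adhesion molecule, had 701, 107 and 408.5 FPKM in atrium-like and 58.4, 5.67 and 235 FPKM in ventricle-like parts, against at most 0.496 FPKM in E11.5H, and Krt8, Krt18 and Krt19 were its 3 most abundant companions. All 12 genes of the list were tested and called higher in both comparisons with E11.5H, at medians of 9.47 and 7.53. Of the 12, 7 had fewer than 10 fragments in a chamber library in each comparison and had to differ, and the other 5 were Epcam, Krt8, Krt18, Krt19 and Cldn3. Relative to Epcam, Hnf4a was at 0.0706, 0.0924 and 0.0579 in atrium-like replicates 1 to 3, 0.0368 in ventricle-like replicate 1 and 0.0758 in ventricle-like replicate 3. Sox17 relative to Epcam ran from 0.00195 in atrium-like replicate 1 to 0.250 in atrium-like replicate 2.

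Some of the factors also mark cells other than endoderm, and markers of those cells were read beside them. For endothelium, which expresses Sox17, the lead gene Cdh5 had 0.395, 4.01 and 2.16 FPKM in atrium-like and 0.0690, 4.24 and 0.402 FPKM in ventricle-like parts, against 8.88 to 12.3 FPKM in E11.5H. Pecam1 was highest of the HO libraries in atrium-like replicate 2, at 12.4 FPKM, as was Sox17, but second in ventricle-like replicate 2, at 5.94 FPKM, where Sox17 had 0.874 FPKM. Egfl7 had 8.03 to 26.0 and Kdr 0.123 to 17.5 FPKM in the HO libraries. The 10 endothelial genes summed to 11.9, 64.2 and 21.3 FPKM in atrium-like and 35.5, 43.8 and 17.2 FPKM in ventricle-like parts. Their sum in E11.5H was 154 to 182 FPKM. Of the 10, 2 were called lower in atrium-like and 3 in ventricle-like parts, beside 1361 of 15420 and 1113 of 15094 genes tested. In atrium-like and ventricle-like replicates 3, where Sox17 was at 14.7 and 6.78 FPKM, all but 2 and all but 1 of the 10 genes, respectively, were under 1 FPKM. In atrium-like and ventricle-like replicates 2, where Sox17 was at 26.7 and 0.874 FPKM, 8 and 9 of the 10 genes, respectively, reached 1 FPKM. The part of endothelium in the Sox17 values was not tested.

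For the trophoblast, where Cdx2 acts early, the lead gene Elf5 reached at most 0.646 FPKM. Plet1 had 12.4 to 155 FPKM and Krt7, which the heart libraries also held (15.0 to 28.3 FPKM), 14.4 to 205 FPKM in the HO libraries. Prl3d1, a placental lactogen of giant cells, had 44.1 FPKM in ventricle-like replicate 2, a library without Cdx2, and at most 1.44 FPKM in the other HO libraries. Of the 8 genes, 2 were called higher in atrium-like parts (Tfap2c and Plet1) and 3 in ventricle-like parts (also Krt7), out of 5 tested in each. Of these only Krt7 had at least 10 fragments in each chamber library of its comparison. For posterior mesoderm, another site of Cdx2, the lead gene Cdx4 was listed at 0 in each library, and Tbx6, Hoxa13 and Msgn1 reached at most 0.485, 0.491 and 0.485 FPKM in the HO libraries.

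For floor plate and notochord, which express Foxa2, the lead gene Shh had 0.511, 0 and 0.403 FPKM in atrium-like and 0.0802, 0 and 1.77 FPKM in ventricle-like parts. It was thus highest in the library with the most Foxa2. Chrd and Lmx1a, the other leading genes of the 8, were highest in ventricle-like replicate 2, at 4.17 and 1.87 FPKM, and of the 8 only 3 genes were tested in atrium-like and 2 in ventricle-like parts, without Shh, of which none was called. For mesendoderm, the lead gene Gsc reached 1.76 FPKM in the HO libraries, and its embryonic atrial values were 0.626, 5.84 and 1.26 FPKM. Tdgf1 had 0.957 to 10.4 FPKM in the HO libraries and was called higher in both parts, where 4 and 2 of the 10 genes were tested, but it had fewer than 10 fragments in a chamber library and had to differ. No other gene of the list was called in either comparison with E11.5H, while Trh and Otx2 were highest in ventricle-like replicate 2, at 3.67 and 3.81 FPKM.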

How the data were processed

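With STAR, the authors aligned the reads to the mouse build GRCm38/mm10, and they deposited, for 26190 genes and 12 libraries, expected counts (fragments per gene, not normalized, partly not whole) and FPKM, which divide them by transcript width and library total. The counting tool, versions and use of strand are not given in the sources used here. Samples were grouped by their labels. The expected counts were rounded, filtered with filterByExpr (minimum count 10), normalized by TMM and tested with edgeR 4.0.16 (R 4.3.3; quasi-likelihood test, Benjamini-Hochberg adjustment), each pair of groups in its own fit and without a replicate block. A call needed an adjusted p under 0.05 and a log2 difference over 1 in size. DESeq2 1.42.0 was an alternative. Plots used Python 3.11.15 and matplotlib 3.10.9.

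Ratios within a library are of deposited FPKM, and folds of summed counts are scaled by library totals, both with 95% exact binomial intervals. Against a group without fragments, folds were taken against 3 counts over the group. FPKM carry no correction for composition.

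The text names the 7 factors and, of each of 14 marker lists, the first gene and the 3 genes of highest mean FPKM over the 6 HO libraries, except 1 gene that is not reported here. A few further list genes are named because they were called, were not called or stood out, chosen after their values were seen. By rule it also names, for each factor with a mean of at least 1 FPKM there (Pdx1 had less), the 3 genes of highest Pearson r of log2(TMM-scaled CPM + 0.5) among genes with at least 1 FPKM, the 7 factors left out. The factors and lists were chosen with earlier results of these data known. Embryoid bodies and whole organs of the study were not analysed here.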

Additional observations from a re-analysis of the deposited data

How the results depend on the processing

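Scaled to the 16 cardiomyocyte genes, 14568 of 15420 genes were called between atrium-like parts and atria of E11.5H, and 14221 of 15094 between ventricle-like parts and ventricles. The same scaling gave 1646 of 15704 between the HO parts (with 6 of the 7 factors) and 1776 of 14538 between the chambers of E11.5H. That scaling moved the median log2 difference over all genes to 4.56, 3.48, 1.64 and 0.56. Without the fold limit, 4467 and 1981 genes were called for ventricle-like parts against ventricles and for the chambers. With all 12 libraries in 1 fit, 30 of 16496 genes were called between the chambers. For ventricle-like parts that fit called 5 factors higher, beside 2005 of 16496 genes. By the Wald test of DESeq2, 72 of 20325 genes were called between the HO parts. For ventricle-like parts that test called 5 factors higher, beside 2845 of 19835 genes. Apart from Sox17, the factors had at most 3 fragments over the ventricles and had to differ, so these counts of factors support nothing further.

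Leaving out 1 library gave 1655 to 5494 genes and 4 to 7 factors for atrium-like parts, and 1119 to 3725 genes and 0 to 5 factors for ventricle-like parts. It gave 0 genes and 0 factors between the HO parts and 536 to 766 genes and 0 factors between the chambers. For Sox17 in ventricle-like parts the log2 difference was -0.33 to 1.79, negative without ventricle-like replicate 3, and the fold of summed fragments, added after seeing the data, was 0.883 to 3.70. Between the chambers it was -0.23 to 0.091, positive without atria replicate 1, and 0.46 with the cardiomyocyte scaling.

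Of 91 log2 differences of the factors for atrium-like parts under other settings, 82 kept direction and call. The other 9 kept direction but lost the call. For ventricle-like parts 30 of 39 kept both, with 7 lost, 1 gained and 1 reversed. Most of these values belong to factors that passed the filter through the HO libraries and had to differ, so these shares support nothing further. Sox17 was called in 2 of the 6 fits without 1 library for atrium-like parts and in 0 of 6 for ventricle-like parts. With the replicate number as a block, 2818, 2005, 0 and 620 genes were called in the 4 comparisons, in the order above, with 6, 2, 0 and 0 factors, and Pdx1 was the factor lost in atrium-like parts (edgeR adjusted p = 0.0873). Same-numbered libraries did not deviate together throughout. Their correlations were 0.018, 0.589 and 0.361 between the HO parts, against -0.671 to 0.436 for HO parts of different number. Elsewhere those of the same number were -0.021 to 0.071. The numbers were not taken to pair the libraries, and whether same-numbered parts came from the same HO is not stated.

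With TMM-scaled CPM in place of FPKM, Pdx1 no longer overlapped between the HO parts. With a pseudocount of 1, 1 of the 3 genes most like Cdx2 remained, 2 for Foxa2, Foxa3 and Hnf4a, and 3 for Foxa1 and Sox17. In a library with 0 fragments, up to 3 counts cannot be told from none, which limits statements on Pdx1.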
